A study of Mus musculus with 18 samples.

Results

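In mouse bone marrow-derived macrophages, 1552 of 53796 accessible chromatin regions (2.88%) were opened by each of 4 stimuli given alone. The stimuli were CpG DNA, lipopolysaccharide (LPS), polyI:C and tumour necrosis factor (TNF). A region belonged to the set when its mean log2 CPM (log2 of the read count scaled to library size) over the 2 libraries of each single-stimulus group lay at least 0.8 above the mean of the 2 medium libraries. Values of the 4 single-stimulus groups and of the medium group therefore chose the regions, and everything below that uses those 10 libraries is a description without a test.

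The cells were cultured from the marrow of wild-type C57BL/6 mice aged 6 to 12 weeks with M-CSF at 20 ng/mL and replated on day 7. Every culture passed through 2 periods of 4 h, and a 2-letter name gives the agent of the first and then of the second period. The single-stimulus groups had medium first: MC received CpG (100 nM), ML received LPS (1 ng/mL), MP received polyI:C (1 µg/mL) and MT received TNF (10 ng/mL) in the second period. The double-stimulus groups were CL (CpG, then LPS), PL (polyI:C, then LPS), CT (CpG, then TNF) and PT (polyI:C, then TNF), and MM had medium in both periods. Accessibility was read by ATAC-seq, an assay in which a transposase cuts and tags DNA that is not packed into nucleosomes. Each group had 2 libraries. Whether replicates came from separate animals or cultures is not in the labels, so a p-value here covers only the variation among these libraries, which may be technical.

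LPS acts on the receptor TLR4, CpG DNA on TLR9, polyI:C on TLR3 and cytosolic RNA sensors, and TNF on its own receptors. All these receptors lead to the kinase complex that frees NF-kB from its inhibitors. NF-kB then switches on cytokine, chemokine and survival genes together with inhibitors that limit the response, such as the genes for A20 and IkB-alpha. TLR3 and TLR4 also signal through the adaptor TRIF to induce type I interferon and, with it, interferon-stimulated genes.

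The libraries held 3141641 to 5986835 reads in regions, which limits the precision for regions with few reads. The 1552 regions had a median of 17 and 9 reads in the MM libraries, and 31 of them had 0 reads in at least 1 MM library. Between the MP libraries the difference was within counting noise (chi-square per region 1.003, against 1.069 to 2.714 in the other groups), so they may be 1 library counted as a pair and the MP group may have n = 1. The 2 PT libraries stood furthest apart (chi-square per region 2.714, correlation over regions 0.919, against 0.9578 to 0.9727 in the other groups). Regions lay at 8 of 8 macrophage marker genes, at 1 of 5 markers of T and NK cells, 1 of 4 of B cells, 2 of 5 of neutrophils and 0 of 5 of fibroblasts and endothelium.

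Of the 1552 regions, 20 covered at least 150 bases of a promoter window (250 bases before to 50 after a gene start) of a protein-coding gene, with 24 windows for 20 genes. The genes were Slamf8, Tnfaip3, Tnip1, Socs3, Serpina3f, Gm4606, Acod1, Tnf, LOC115488765, Fas, Ralgds, Tank, Gbp2, Tnfsf15, Acot7, Cxcl10, Olr1, Ampd3, Camp and Ccrl2. Windows of 5 of them are shown. Those of Cxcl10, Slamf8, Gbp2 and Tnip1 had the most bases in matches marked below (36, 26, 16 and 12), and that of Acod1 had 0. The windows of Tnf, Tnfaip3 and Socs3 also had 0, so the 5 shown do not stand for the 20 genes. Cxcl10 encodes a chemokine that attracts activated T cells and Slamf8 a receptor of the SLAM family on myeloid cells. Tnip1 encodes the A20-binding inhibitor ABIN1, Gbp2 an interferon-induced guanylate-binding protein and Acod1 the enzyme that makes itaconate. The sequences are from RefSeq on GRCm38, read along the gene. Capitals mark matches, on either strand, to NF-kB (GGGANTTTC, and the longer NF-kB consensus), AP-1 (TGANTCA) and the interferon-stimulated response element, ISRE (GAAANNGAA).
Cxcl10 promoter, chr5:92348840-92349139 (minus strand): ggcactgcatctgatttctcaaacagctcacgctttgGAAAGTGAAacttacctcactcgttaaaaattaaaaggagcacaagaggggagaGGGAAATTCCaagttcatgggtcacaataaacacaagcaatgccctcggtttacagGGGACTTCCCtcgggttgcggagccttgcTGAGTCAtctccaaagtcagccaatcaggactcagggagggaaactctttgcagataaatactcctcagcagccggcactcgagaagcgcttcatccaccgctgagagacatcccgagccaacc
Slamf8 promoter, chr1:172590519-172590818 (minus strand): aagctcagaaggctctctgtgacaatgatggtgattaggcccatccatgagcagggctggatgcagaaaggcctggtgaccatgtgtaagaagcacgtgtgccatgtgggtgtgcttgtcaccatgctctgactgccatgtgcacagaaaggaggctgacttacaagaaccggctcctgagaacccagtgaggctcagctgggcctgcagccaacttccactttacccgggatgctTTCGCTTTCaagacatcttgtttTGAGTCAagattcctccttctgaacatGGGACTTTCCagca
Tnip1 promoter, chr11:54962891-54963190 (minus strand): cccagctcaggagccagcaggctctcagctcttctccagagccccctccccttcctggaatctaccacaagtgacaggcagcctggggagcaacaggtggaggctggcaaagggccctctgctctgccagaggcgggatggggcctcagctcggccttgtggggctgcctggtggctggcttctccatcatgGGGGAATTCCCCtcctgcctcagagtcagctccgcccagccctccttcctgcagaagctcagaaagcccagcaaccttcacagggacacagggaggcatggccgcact
Gbp2 promoter, chr3:142620413-142620712 (plus strand): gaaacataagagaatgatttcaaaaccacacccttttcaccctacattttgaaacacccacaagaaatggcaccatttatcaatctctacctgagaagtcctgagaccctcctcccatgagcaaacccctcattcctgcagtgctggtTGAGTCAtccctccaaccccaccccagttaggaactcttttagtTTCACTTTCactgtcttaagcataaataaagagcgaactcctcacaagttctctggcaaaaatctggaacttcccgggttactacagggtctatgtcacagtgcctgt
Acod1 promoter, chr14:103046762-103047061 (plus strand): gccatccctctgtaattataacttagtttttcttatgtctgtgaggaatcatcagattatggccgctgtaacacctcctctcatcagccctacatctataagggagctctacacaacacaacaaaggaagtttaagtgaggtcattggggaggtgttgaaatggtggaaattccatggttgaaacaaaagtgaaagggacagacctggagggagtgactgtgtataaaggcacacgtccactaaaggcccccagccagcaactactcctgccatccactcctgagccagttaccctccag

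The Cxcl10 window held 2 matches to the NF-kB consensus, 1 to AP-1 and 1 to the ISRE, and the Slamf8 window held 1 of each of the 4 patterns, its 2 NF-kB patterns overlapping at one site. In the Tnip1 window, 3 NF-kB consensus matches overlapped in one palindromic run, the Gbp2 window held 1 AP-1 and 1 ISRE match, and the Acod1 window held no match. Over the 24 windows, the NF-kB consensus was in 5 (20.8%), against 5.18% of the 8750 promoter windows covered in the same way by any region and 4.81% of all 21237 windows. The consensus pattern was chosen after the first motif counts were known. AP-1 was in 6 (25%), against 4.79% of covered windows and 6.99% of all windows. The ISRE was in 5 (20.8%), against 7.01% of covered windows and 8.13% of all. The 9-letter NF-kB pattern was in 1 window (4.17%, against 1.01% of covered windows). The C/EBP pattern (TTGCNNCAA) was in 1 window (4.17%, against 1.41%), and the PU.1 pattern (GAGGAAGT) was in 0 windows, against 3.59% of covered windows. Windows of 1 gene overlap each other, so the 24 are not independent. The ISRE matches in the overlapping Serpina3f windows are the same site. A match describes letters in the window and does not show binding.

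The regions at these 5 promoters lay within a moderate range of levels. The region at the Cxcl10 promoter had 4.96 and 5.10 log2 CPM in MC, 4.99 and 5.06 in ML, 5.65 and 5.55 in MP and 4.63 and 4.69 in MT, against 3.67 and 3.37 in MM. In the double-stimulus groups it had 5.03 and 5.06 in CL, 5.24 and 5.04 in PL, 4.75 and 4.64 in CT and 5.06 and 4.88 in PT. Every stimulated library lay above both MM libraries there, with the MP libraries highest and the MT and CT libraries lowest. The region at the Slamf8 promoter had 5.66 and 5.61 log2 CPM in MC, 5.49 and 5.63 in ML, 6.28 and 6.17 in MP and 5.42 and 5.16 in MT, against 4.21 and 4.25 in MM. Its level was 5.70 and 5.54 in CL, 6.10 and 6.06 in PL, 5.71 and 5.73 in CT and 6.36 and 6.37 in PT. All libraries that had received polyI:C lay above all those that had not.

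The region at the Tnip1 promoter showed another order, with the MP and PT libraries lowest among the stimulated ones. It had 4.42 and 4.38 log2 CPM in MC, 4.45 and 4.34 in ML, 3.71 and 3.97 in MP and 4.17 and 4.56 in MT, against 2.79 and 3.13 in MM, and 4.32 and 4.52 in CL, 4.30 and 4.27 in PL, 4.40 and 4.45 in CT and 4.07 and 3.56 in PT. The Gbp2 promoter region differed little between stimuli, with means 1.04 (MT) to 1.54 (MP) above MM after 1 stimulus and 0.79 (CT) to 1.06 (PT) after a pair of stimuli. The Acod1 promoter region, described further below, stood 2.14 to 3.50 above MM after 1 stimulus, the highest of the 5.

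The 4 stimuli opened the regions to unequal degrees. Over the 1552 regions, the median difference from MM was 1.64 log2 CPM in MC, 1.66 in ML, 1.68 in MP and 1.15 in MT, against medians of -0.01 to 0.01 over all regions. A difference of at least 0.8 was reached by 11.7% of all regions in MC, 9.17% in ML, 12.3% in MP and 4.36% in MT, shares given only as background because these contrasts made the rule. TNF gave the smallest of the 4 differences in 1071 regions (69.0%) and the largest in 19 (1.22%). PolyI:C gave the largest in 617, CpG in 476 and LPS in 440. The median level was 3.52 log2 CPM in MC, 3.53 in ML, 3.62 in MP and 3.05 in MT, against 1.78 in MM, while over all regions every group's median lay between 3.68 and 3.77. In MM, 1309 of the regions (84.3%) were below the 25th percentile of all regions, so the set consisted mostly of regions of low accessibility in unstimulated cells. Together they held 0.659% and 0.687% of the reads in regions in the MM libraries and between 1.66% and 2.93% in the stimulated libraries.

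**Figure D1:**
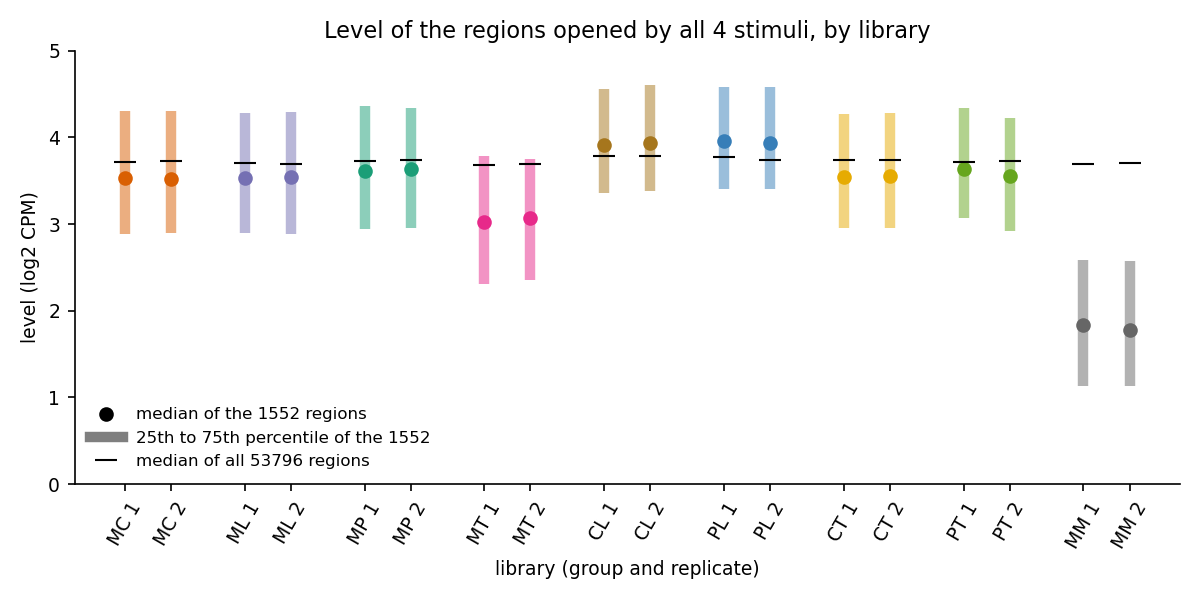
Level of the 1552 regions in each of the 18 libraries, in log2 CPM. Points are medians, bars run from the 25th to the 75th percentile and short lines give the median of all 53796 regions. The 2 MM libraries have the lowest medians of the regions (1.84 and 1.78), the 2 MT libraries the next lowest (3.02 and 3.07), and the CL and PL libraries the highest (3.91 to 3.96).

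The smallest of the 4 differences was at least 1 in 936 regions (60.3%) and at least 2 in 39 (2.51%). The region in first place by this measure lay inside Tnip1 (chromosome 11, 54953981 to 54954482, mm10). It had 3.45 and 3.88 log2 CPM in MC, 4.24 and 4.06 in ML, 3.67 and 4.03 in MP and 3.54 and 3.54 in MT, against 0.58 and 0.90 in MM. After a pair of stimuli it had 4.43 and 4.71 in CL, 4.88 and 5.19 in PL, 4.14 and 4.47 in CT and 4.66 and 3.91 in PT. All stimulated libraries were far above both MM libraries, and TNF, with the smallest difference (2.80), came close to CpG (2.92). A region 2.94 kb before the start of Cp, which encodes the copper-carrying ferroxidase ceruloplasmin, had 4.90 and 5.03 log2 CPM in MC, 4.29 and 4.41 in ML, 4.43 and 4.29 in MP and 3.54 and 3.63 in MT, against 1.35 and 0.90 in MM. CpG gave the highest and TNF the lowest values there, with no overlap between those 2 groups.

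The other regions among the 12 with the highest smallest difference were assigned to Ccdc88b, Tmem123, Sirt6 (a NAD-dependent deacylase of chromatin), Rnf180 (a ubiquitin ligase), Bcl2a1a (an anti-apoptotic BCL2 relative), Stt3a (a catalytic subunit of oligosaccharyltransferase), Thumpd3, Tnfaip8, Socs3 (an inhibitor of cytokine receptor signalling through JAK kinases) and Cep192 (a centrosome protein). Their smallest differences ran from 2.18 (Cep192) to 2.45 (Ccdc88b). The Socs3 region, 8.68 kb before the gene, had 5.04 and 5.14 log2 CPM in MC, 5.27 and 5.03 in ML, 4.63 and 4.58 in MP and 4.24 and 3.97 in MT, against 1.77 and 2.02 in MM. Among double-stimulus libraries it had 4.83 and 5.00 in CL, 4.73 and 4.56 in PL, 4.71 and 5.14 in CT and 3.59 and 2.92 in PT. Both PT libraries were below every other stimulated library.

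**Figure D2:**
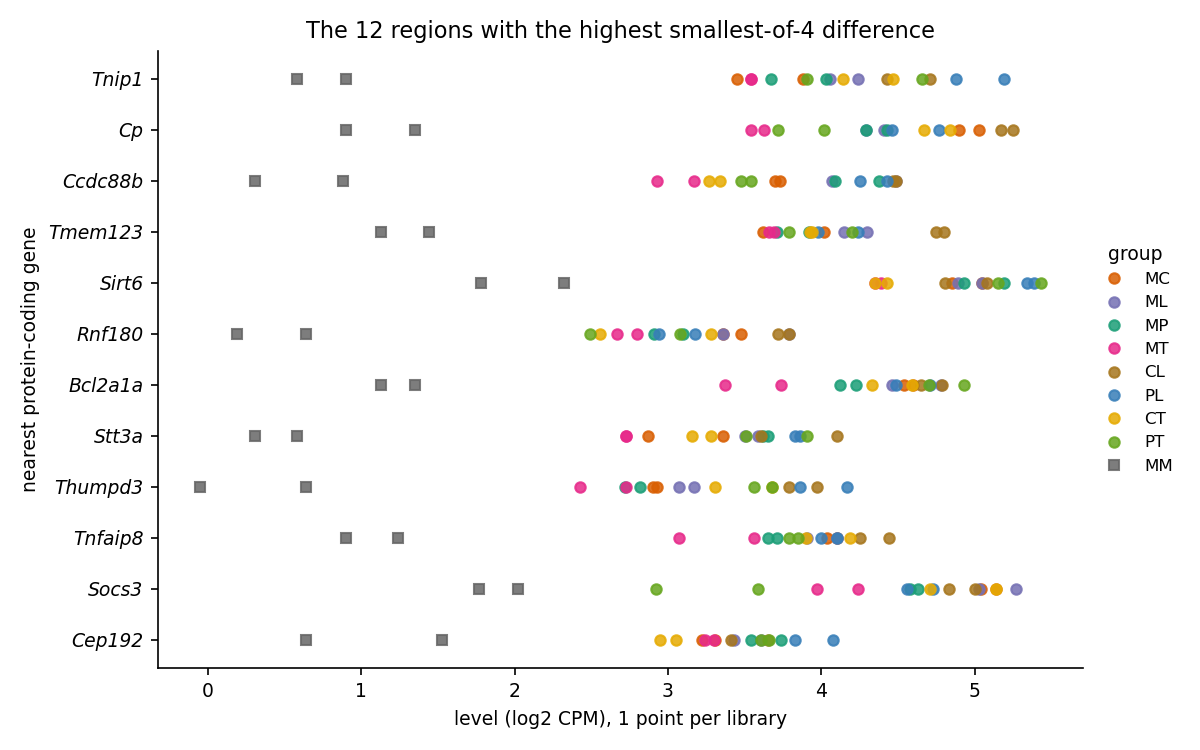
Level in log2 CPM (horizontal axis) of the 12 regions with the highest smallest-of-4 difference, 1 row per region named by its nearest protein-coding gene, with 1 point per library coloured by group. In each row the 2 MM squares lie left of all stimulated points, and in the Socs3 row the 2 PT points (3.59 and 2.92) lie left of the others.

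At the threshold, regions just inside and just outside were alike. Just inside, with a smallest difference that rounds to 0.80, were regions near Btg1 (set by polyI:C), Cacna1d and Zcchc2 (both set by TNF). Just outside were regions near Grk3 and Plekho2 and a region on chromosome 19 more than 50 kb from a gene, all set by TNF at values that also round to 0.80. The Btg1 region had 1.81 and 0.57 log2 CPM in MP, against 0.88 and -0.10 in MM, so its libraries overlapped in the very comparison that set its place. The regions with the highest MM level lay at Birc3 (6.08 and 5.95 log2 CPM in MM), which encodes the ubiquitin ligase cIAP2 of TNF receptor complexes, and near Tnfrsf8, Atp6v1g3 and Igfbp7. The means of the Birc3 region after 1 stimulus lay 0.89 (MT) to 0.98 (MP) above MM, a narrow range at a high level.

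By place, the regions lay away from gene ends. A region within 1 kb of the end or start of a gene body was the least frequent kind, with 88 of 1552 (5.67%), against 24.6% of all regions. A further 798 (51.4%) lay inside a gene, against 43.3% of all regions, 470 (30.3%) between genes within 50 kb of one, against 22.9%, and 196 (12.6%) more than 50 kb from a gene, against 9.21%. In other terms, 0.664% of all regions at gene ends belonged to the set, 3.43% of those inside genes, 3.81% of those between genes and 3.95% of those far from genes. The regions at gene ends had a higher median level in MM (2.49 log2 CPM) than those inside genes (1.71), between genes (1.80) or far from genes (1.65). Their median difference from MM was 1.50 in MC, 1.58 in ML, 1.54 in MP and 1.09 in MT, and it was lower than inside genes in each of these groups (1.61, 1.67, 1.71 and 1.16 in the same order). The part of the MM level in this pattern of places was not tested.

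**Figure D3:**
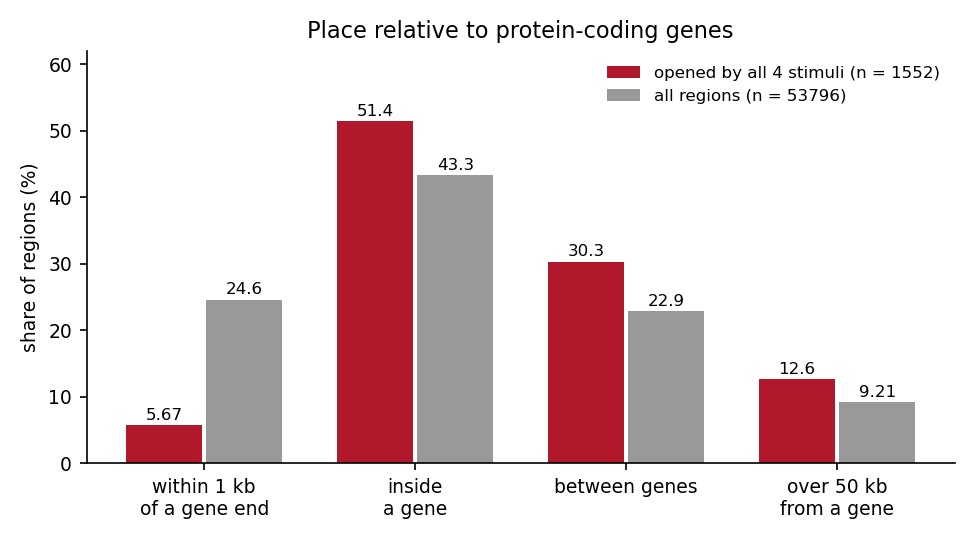
Share (percent, vertical axis from 0) of the 1552 regions, left bar of each pair, and of all 53796 regions, right bar, by place relative to protein-coding genes. The set has 5.67% at gene ends, against 24.6% of all regions, and larger shares than all regions in the other 3 places.

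Within 50 kb of a protein-coding gene lay 1356 of the regions (87.4%), assigned to 1104 genes, and assignment by distance does not show which gene a region acts on. Most of these genes (913) had 1 region of the set, and 42 had at least 3. Acod1 had the most, 7 of its 22 regions, followed by Lpp (6 of 49), Tnfaip3 (5 of 14), Irak2 (5 of 17) and Arhgef3 (5 of 18). Genes with 4 were Alpk2 (of 11), Nfkbiz (of 12), Slc1a2 (of 14), Nfkbia (of 15), Nrp2 (of 25) and Pde4b (of 26). Tnfaip3 encodes A20, a ubiquitin-editing enzyme that ends NF-kB signalling. Nfkbia encodes IkB-alpha, which holds NF-kB in the cytoplasm, Nfkbiz encodes the nuclear co-regulator IkB-zeta, and Irak2 encodes a kinase of the TLR adaptor complex. Within 10 kb of another member lay 223 regions of the set (14.4%), and within 50 kb 462 (29.8%). The same share was not computed over all regions, so these counts do not show whether the set lay closer together.

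Among 12 lists of macrophage genes, chosen with earlier results of these data known, 124 of 1729 regions (7.17%) belonged to the set, against 1428 of the 52067 other regions (2.74%). By list, the share was highest for cytokines and effectors, with 26 of 169 regions (15.4%) at 15 genes, and for NF-kB inhibitors and negative feedback, with 33 of 237 (13.9%) at 17 genes. Chemokines followed with 8 of 68 (11.8%), then adhesion, costimulation and antigen presentation with 10 of 117 (8.55%), receptors, adaptors and kinases of TLR and TNF signalling with 19 of 240 (7.92%), NF-kB subunits with 3 of 38 (7.89%) and survival and cell death with 7 of 108 (6.48%). Shares were lower for metabolism and oxidative stress (6 of 130, 4.62%), other macrophage transcription factors (9 of 255, 3.53%), AP-1, ATF and CNC-bZIP factors (2 of 123, 1.63%, both at Fos), interferon-stimulated genes (2 of 127, 1.57%, at Ddx58 and Gbp2) and resident and alternatively activated macrophage genes (1 of 124, 0.806%, at Mrc1). These are counts over the lists, with no test.

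In the NF-kB subunit list, 2 regions lay at Nfkb1 (p105 and p50) and 1 at Rel (c-Rel). One region inside Nfkb1 (chromosome 3, 135640212 to 135640713) had 5.02 and 4.97 log2 CPM in MC, 4.70 and 4.51 in ML, 4.40 and 4.65 in MP and 2.54 and 3.07 in MT, against 0.58 and 0.90 in MM. TNF opened it least, with both MT libraries below all those of the other 3 stimuli. The Rel region had means 0.98 (MT) to 1.79 (MC) above MM. In the inhibitor list, median differences were 1.75 in MC, 1.98 in ML, 1.66 in MP and 1.32 in MT. The 5 Tnfaip3 regions ranged in their smallest difference from 0.91, in the region at one of the annotated starts, to 1.42, in a region 2.41 kb inside the gene. A region at another start (19015079 to 19015580 on chromosome 10, mean 5.03 log2 CPM in MM) was not in the set, with means 0.18 (MT) to 0.57 (ML) above MM. The region 2.41 kb inside the gene had 5.34 and 5.39 log2 CPM in MC, 5.68 and 5.76 in ML, 5.35 and 5.51 in MP and 5.47 and 5.42 in MT, against 4.14 and 3.75 in MM. Here TNF did not stand below the other stimuli, and the MT libraries lay within the range of the MC and MP libraries.

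Among signalling genes, regions of the set lay at Traf2 and Ripk2 (an adaptor and a kinase of TNF receptor and NOD receptor signalling), Nod2 (a sensor of bacterial cell wall fragments), Tlr1, Tnfrsf1b, Map3k8, Map3k5, Tbk1, Cflar, Birc3 and Irak2. The Traf2 region had 5.06 and 5.27 log2 CPM in MC, 4.93 and 4.89 in ML, 5.04 and 5.18 in MP and 3.98 and 3.66 in MT, against 2.04 and 1.91 in MM. The 3 TLR ligands reached a similar level there and TNF a lower one. Among cytokine and effector genes, Acod1, Il1a, Il1rn, Nos2 and Ptges had more than 1 region of the set. Il10, Il15, Il1b, Il27, Il6, Inhba, Lif, Mmp14, Tnf and Tnfsf15 had 1. The region at the Tnf promoter had 5.17 and 5.23 log2 CPM in MC, 5.60 and 5.54 in ML, 5.42 and 5.37 in MP and 4.67 and 4.68 in MT, against 3.70 and 3.53 in MM. LPS gave its highest and TNF its lowest values among the single stimuli, without overlap. Fos, an immediate early gene of AP-1, had a region 39.9 kb beyond its start with 2.81 and 3.14 log2 CPM in MC, 4.49 and 4.51 in ML, 3.93 and 4.01 in MP and 3.84 and 3.63 in MT, against 1.84 and 1.13 in MM, and there CpG gave the lowest single-stimulus values.

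At Acod1, the 7 regions of the set differed among themselves. The region at the promoter (chromosome 14, 103046654 to 103047155) had 5.16 and 5.42 log2 CPM in MC, 5.26 and 5.30 in ML, 6.05 and 5.98 in MP and 4.60 and 4.71 in MT, against 2.46 and 2.57 in MM. Regions 17.7 and 31.0 kb before the gene stood 1.35 and 1.11 above MM in MT. The 4 regions from 5.20 to 11.7 kb past the start stood 0.81 to 1.01 above MM in MT and 2.64 to 3.77 above MM in MP. Those at 5.20, 6.78 and 7.87 kb had only 0 to 2 reads in each MM library, so their place in the set rests on few reads. At 7.87 kb MT replicate 1 (0.16 log2 CPM) lay below MM replicate 2 (0.31). The region at 6.78 kb had 2.48 and 2.59 log2 CPM in MC, 2.57 and 2.39 in ML, 3.27 and 3.24 in MP and 0.54 and 0.45 in MT, against -0.34 and -0.70 in MM, where -0.70 is the value of 0 reads. Regions of this stretch at 10.16 and 11.06 kb were not in the set, with means 0.62 and 0.38 above MM in MT and 4.42 and 4.21 above MM in MP.

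**Figure D4:**
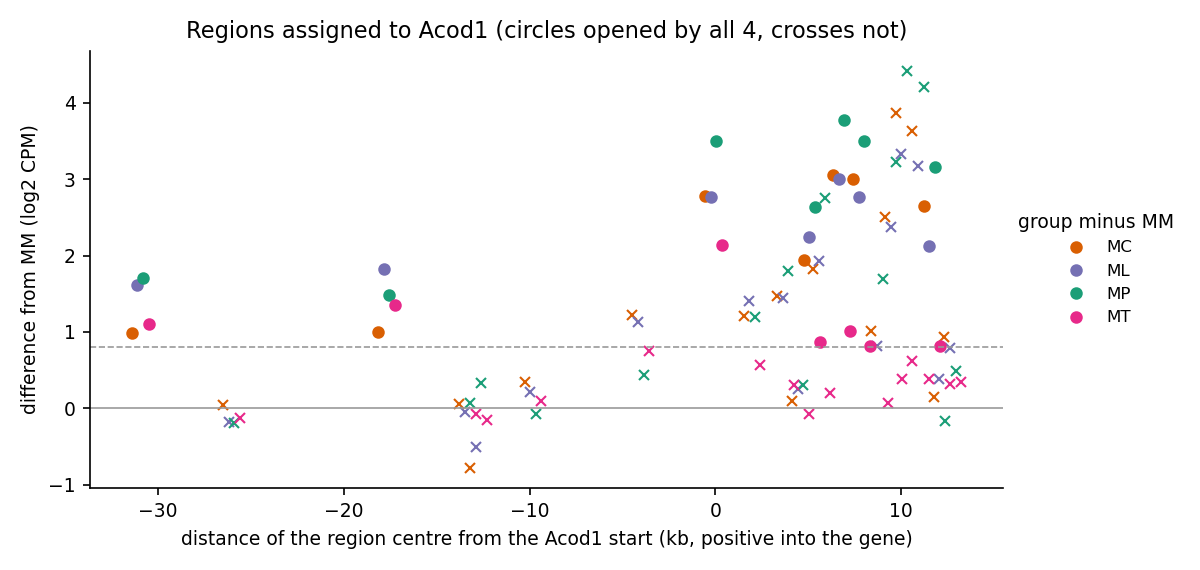
Difference of each single-stimulus group mean from MM (log2 CPM, vertical axis) for the 22 regions assigned to Acod1, by distance of the region centre from the gene start in kb, with the 4 groups offset sideways within a region. Circles are the 7 regions of the set and crosses the other 15, the dashed line is 0.8, and in the stretch beyond 5 kb the MT points lie near or below the line while many MP points lie above 2.

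After a pair of stimuli, most of the regions were again above MM, and more so when LPS came second. The median difference from MM was 2.01 log2 CPM in CL, 2.10 in PL, 1.68 in CT and 1.73 in PT, against -0.01 to 0.01 over all regions. A difference of at least 0.8 was found in 1528 of the 1552 regions in CL (15.4% of all regions), 1525 in PL (16.5% of all), 1481 in CT (12.4% of all) and 1435 in PT (14.0% of all). The 4 counts share the MM libraries, which also chose the regions, so they are not separate evidence. The lowest means over the 4 double-stimulus groups were in a region on chromosome 6 far from genes, and in regions near Ccl2 (a monocyte-attracting chemokine), Hivep2 and Pde4b (a cAMP phosphodiesterase). The Ccl2 region had 4.90 and 4.72 log2 CPM in CL, 4.85 and 5.17 in PL, 4.65 and 4.63 in CT and 5.24 and 4.98 in PT, against 4.32 and 4.30 in MM. The highest means were at Rbbp8, Mrpl39, Ube2z and Tpm4. The Mrpl39 region had 6.09 and 6.06 in CL, 5.98 and 6.05 in PL, 5.71 and 5.80 in CT and 5.64 and 5.86 in PT, against 2.04 and 1.32 in MM.

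Set against the second stimulus alone, the regions lay higher in the groups that had received CpG or polyI:C first. The median difference was 0.31 for CL minus ML, 0.36 for PL minus ML, 0.47 for CT minus MT and 0.53 for PT minus MT, against 0.00 to 0.04 over all regions. A difference of at least 0.8 was found in 306 regions for CL over ML (6.70% of all regions), 374 for PL over ML (8.44% of all), 460 for CT over MT (7.30% of all) and 511 for PT over MT (8.77% of all). A difference of at least 0.8 downward was found in 5, 31, 8 and 17 regions for the same 4 pairs (1.38%, 2.70%, 1.72% and 3.99% of all). Set against the first stimulus given in the second period, CL lay a median of 0.31 above MC and PL 0.33 above MP, while CT differed from MC and PT from MP by a median of -0.01. A difference of at least 0.8 was found upward in 232 regions and downward in 0 for CL over MC (2.48% and 0.329% of all regions), and in 331 and 30 for PL over MP (6.93% and 2.04% of all). It was found in 31 and 16 for CT over MC (1.46% and 0.639% of all) and in 112 and 119 for PT over MP (5.11% and 4.20% of all). The set was chosen on ML, MT, MC and MP values, and pairs that share a group share its libraries, so these are descriptions.

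The 8 double-stimulus libraries took no part in choosing the regions, and they were compared with each other by limma across all 53796 regions, with Benjamini-Hochberg adjusted p under 0.05 as the threshold. The median standard error of a difference was 0.22 log2 CPM. The first comparison asked whether CpG or polyI:C as first stimulus left the regions at different levels after LPS. In CL, 77 of the 1552 regions were higher than in PL (2.72% of all regions were) and 111 were lower (3.10% of all). The median difference over the set was -0.03, with an interquartile range of -0.33 to 0.28. The count was not stable: it fell without any 1 of the CL, PL or CT libraries and rose without either PT library. Such fits leave a group with 1 library, and the cause of the shifts was not tested.

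The highest rise in CL lay at a region 11.9 kb before Rnf24, which encodes a membrane-bound RING finger protein. It had 4.32 and 4.62 log2 CPM in CL, against 1.95 and 1.89 in PL (difference 2.55 ± 0.26, SE, limma adjusted p = 8.28e-06). CpG alone gave 4.20 and 4.28 there (MC) and polyI:C alone 1.38 and 0.76 (MP). The groups did not overlap in either pair. The next rises were at Tpm4, a tropomyosin of the actin cytoskeleton, with 4.26 and 4.12 in CL and 1.95 and 1.97 in PL (difference 2.23), at Wdr11 (1.52) and at Lyn, a kinase of the SRC family (1.46). The Wdr11 call was lost without either CL library or PL replicate 2 (adjusted p up to 0.113). The lowest value in CL relative to PL was near Grm5, which encodes a glutamate receptor known from neurons. This region had 1.26 and 0.50 log2 CPM in CL, against 3.37 and 3.48 in PL (difference -2.55 ± 0.35, SE, limma adjusted p = 0.000173). It had 4.50 and 4.40 in MP, above every other library, and only 0.89 and 1.07 in MC. Further falls were at Phf21a (-1.99), a histone reader of the LSD1 corepressor complex, Rasgrp1 (-1.61), a Ras activator, and Lilr4b (-1.58), a receptor of myeloid cells.

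With TNF as second stimulus, the same question gave more regions past the threshold. The fit assumes a common spread of the 4 groups in each region, while the PT libraries stood furthest apart (chi-square per region 2.714). Counts of comparisons with and without PT are therefore not directly comparable, and the part of the PT spread was not tested. In CT, 283 regions were higher than in PT (13.9% of all regions were) and 322 were lower (12.1% of all), with a median difference of -0.02 and an interquartile range of -0.48 to 0.42. Without CT replicate 2 the count of 605 became 310. The Rnf24 region had 4.02 and 3.86 log2 CPM in CT, against 0.50 and 0.29 in PT (difference 3.55 ± 0.26, SE, limma adjusted p = 2.75e-09). Both PT libraries were close to the MM libraries there (0.40 and -0.10). A region inside Eml2, which encodes a microtubule-binding protein, had 4.48 and 4.80 in CT, against 1.59 and 0.87 in PT (difference 3.41 ± 0.23, limma adjusted p = 7.46e-10), and a region inside Lyn had 4.92 and 4.99 in CT, against 1.93 and 1.97 in PT (difference 3.00). A region inside Tmem131l differed by 2.92.

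The lowest values in CT relative to PT were again near Grm5, with 0.29 and 0.71 log2 CPM in CT, against 3.14 and 4.08 in PT (difference -3.11 ± 0.35, SE, limma adjusted p = 1.13e-06). A region inside Art3 had 1.16 and 1.50 in CT, against 3.95 and 3.82 in PT (difference -2.56). This region, at 92363052 to 92363553, lies on chromosome 5 beside the Cxcl10 promoter region (92348709 to 92349210), at which CT and PT had 4.75 and 4.64 against 5.06 and 4.88 (difference -0.28 ± 0.16, limma adjusted p = 0.201). Regions near Gda, a guanine deaminase (-2.47), and Slc1a2, a glutamate transporter (-2.28), were also lower in CT. CL and PL share no library with CT and PT, but both comparisons use the same spread per region from the same fit, so their calls are not independent. Of the regions higher in CL than in PL, 59 (76.6%) were also higher in CT than in PT, and these are 20.8% of the 283 regions higher in CT. Of those lower in CL, 98 (88.3%) were also lower in CT, which is 30.4% of its 322, and 0 were called in opposite directions. Over all regions, 75.5% of the higher and 73.0% of the lower calls with LPS second were shared in this way, which are 14.8% and 18.7% of the calls with TNF second. Opposite calls were as rare there, with 0 of 1465 higher and 2 of 1667 lower calls with LPS second. The difference from the set was not tested.

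**Figure D5:**
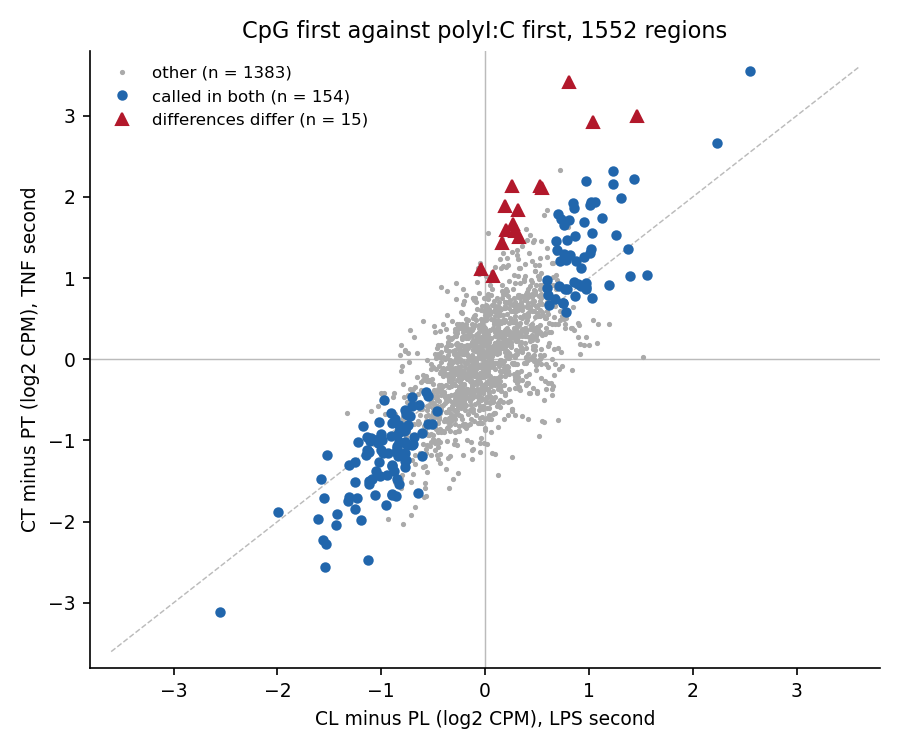
Difference CT minus PT (vertical axis) against difference CL minus PL (horizontal axis), both in log2 CPM, for the 1552 regions, with 1 point per region and a dashed line of equal differences. Blue points passed the threshold in both comparisons, and red triangles mark the 15 regions at which the differences themselves differed, which lie above the line.

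By list, the calls between CpG first and polyI:C first were as follows, where over all regions 13.9% were higher and 12.1% lower in CT than in PT, and 2.72% were higher and 3.10% lower in CL than in PL. Of the 33 inhibitor regions, 9 were higher and 3 lower in CT than in PT, and 3 were higher and 0 lower in CL than in PL. Of the 8 chemokine regions, 0 were higher and 3 lower in CT than in PT, and 0 were higher and 1 lower in CL than in PL. Of the 26 cytokine and effector regions, 7 were higher and 8 lower in CT, and 2 were higher and 1 lower in CL. Of the 19 receptor, adaptor and kinase regions, 6 were higher and 2 lower in CT, and 0 were called in CL. Of the 9 regions of other transcription factors, 2 were higher and 4 lower in CT, and 1 was higher and 2 lower in CL. Of the 6 metabolism regions, 4 were higher and 1 lower in CT, and 0 were called in CL. Of the 10 adhesion and antigen presentation regions, 2 were higher and 4 lower in CT, and 1 was higher and 4 were lower in CL. Cd44, the hyaluronan receptor, had 5.24 and 5.26 log2 CPM in CL and 5.68 and 5.83 in PL, and 4.92 and 5.26 in CT and 5.90 and 5.89 in PT, lower after CpG in both pairs (differences -0.51 and -0.80, limma adjusted p = 0.0428 and 0.000418). A region inside Ciita, the master regulator of MHC class II genes, was likewise lower in CL than in PL (-0.82) and in CT than in PT (-0.85). Both calls of CL against PL were lost without any 1 of the CL or PL libraries, and the Ciita call of CT against PT was lost without CT replicate 1. The lists not named in this paragraph had at most 1 call in each direction between CT and PT, and 0 between CL and PL. The difference between lists was not tested.

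LPS and TNF as second stimulus were compared after the same first stimulus. After CpG, 39 of the 1552 regions were higher in CL than in CT (0.191% of all regions were) and 0 were lower (0.0149% of all), by limma at the adjusted threshold, and at an unadjusted p under 0.05 the counts were 536 higher and 3 lower (5.90% and 2.95% of all regions). Voom on recovered reads called 79 higher and 0 lower. The median difference over the set was 0.31, with an interquartile range of 0.13 to 0.55, against 0.01 over all regions, and 86.9% of the set lay above 0, against 51.6% of all regions. The count of 39 was 0 without CL replicate 1, CL replicate 2 or CT replicate 2, 2 without CT replicate 1, 12 without either PL library, and 237 and 238 without PT replicate 1 or 2. After polyI:C, 246 regions were higher in PL than in PT (3.11% of all) and 2 lower (0.796% of all). The median difference was 0.33, with an interquartile range of 0.07 to 0.62, against 0.03 over all regions. The 248 calls became 54 and 71 without PL replicate 1 or 2, 153 and 155 without CL replicate 1 or 2, and 582 without PT replicate 1.

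The region with the highest rise in CL over CT was 1 of the 4 Acod1 regions past the gene start, at 5.20 kb. It had 3.47 and 3.04 log2 CPM in CL, against 1.79 and 0.98 in CT (difference 1.87 ± 0.30, SE, limma adjusted p = 0.00748). The pair PL and PT gave 3.86 and 3.46, against 2.49 and 2.08 (difference 1.37 ± 0.30, limma adjusted p = 0.0101). The regions at 6.78, 7.87 and 11.7 kb were also higher in CL than in CT, by 1.47, 1.44 and 1.27, and in PL than in PT, by 1.33, 1.18 and 0.93. In CT all 4 were lower than in PT, by -0.90 to -0.78. The calls of these 4 were each lost without at least 1 library, those of PL over PT without either PL library. The Acod1 promoter region had 5.61 and 5.38 log2 CPM in CL, 5.62 and 5.60 in PL, 5.20 and 5.14 in CT and 5.68 and 5.58 in PT, and passed the threshold only between CT and PT (difference -0.46 ± 0.14, limma adjusted p = 0.0209), among the 5 comparisons run, a call that was lost without either CT library.

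Further rises in CL over CT were at Fhod3 (1.77), Smad2 (1.45), a transducer of TGF-beta signals, and Atp5c1 (1.43), a subunit of ATP synthase. The Nfkb1 region had 5.04 and 5.09 log2 CPM in CL, against 4.05 and 4.19 in CT (difference 0.94, limma adjusted p = 0.013), and 5.34 and 5.56 in PL, against 4.35 and 4.54 in PT (difference 1.00, limma adjusted p = 0.000726). It was higher after LPS than after TNF with either first stimulus. The call after CpG was lost without any 1 of the CL, CT or PL libraries, and that after polyI:C without PL replicate 2. The calls at Fhod3, Smad2 and Atp5c1 were also lost without either CL library or either CT library. The highest rise in PL over PT was at Eml2, with 4.27 and 4.02 in PL, against 1.59 and 0.87 in PT (difference 2.92 ± 0.23, limma adjusted p = 4.24e-08), followed by Tmem131l (2.46), Denr (1.94), a translation reinitiation factor, and Zfp811 (1.85), a zinc finger protein. The 2 regions lower in PL than in PT were at Kctd3 (-0.75) and Plxna2 (-0.74), a semaphorin receptor. The Denr call was lost without PL replicate 1, and those at Kctd3 and Plxna2 without either PL library. Of the 26 cytokine and effector regions, 12 were higher in PL than in PT and 0 lower (3.11% and 0.796% of all regions were), and 4, all at Acod1, were higher in CL than in CT and 0 lower (0.191% and 0.0149% of all).

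In 15 regions the difference between CpG first and polyI:C first itself differed between LPS and TNF as second stimulus, and in all 15 CL minus PL was below CT minus PT (0.219% of all regions were called in this direction). In the other direction 0 regions were called by limma (0% of all), and at an unadjusted p under 0.05 the counts were 124 above and 155 below (5.43% and 7.32% of all regions). The count of 15 fell to between 2 and 7 without any 1 of the CL, PL or CT libraries (3 and 3 for CL replicates 1 and 2, 2 and 3 for PL, 7 and 4 for CT), and became 268 without PT replicate 1 (88 above and 180 below) and 30 without PT replicate 2 (4 above and 26 below). It was 2 without a variance trend in the fit and 32 (5 above and 27 below) with all 9 groups in the fit. The fit with all 9 groups takes in the 10 libraries that chose the regions, so its count is a description. Without at least 1 library, 13 of the 15 lost the call, and the regions at Eml2 and Zfp811 kept it. At all 15, both PT libraries lay below all 6 libraries of CL, PL and CT. Of the 15, 10 lay inside genes, 3 between genes, 2 at gene ends and 0 far from genes. Over all regions of these places, 0.309%, 0.227%, 0.0604% and 0.202% were called in this direction, in the same order.

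The 3 regions of the set at Socs3 were all among the 15. Beside the region 8.68 kb before the gene, the region at its promoter had 5.74 and 5.79 log2 CPM in CL, 5.46 and 5.42 in PL, 5.58 and 6.01 in CT and 4.42 and 4.15 in PT. The region at 117946419 to 117946920 on chromosome 11, had 5.55 and 5.65 in CL, 5.41 and 5.40 in PL, 5.30 and 5.93 in CT and 4.12 and 3.94 in PT. The differences of differences were -1.40, -1.18 and -1.39 (SE 0.30, 0.23 and 0.25; limma adjusted p = 0.0383, 0.0191 and 0.01, in the same order). At this last region the PT mean lay below that of MM (-0.26), while the means after polyI:C alone and TNF alone were above MM (1.09 in MP and 0.92 in MT). A region inside Lpp, a LIM protein of cell adhesions, had 5.50 and 5.66 in CL, 5.21 and 4.88 in PL, 5.31 and 5.54 in CT and 3.32 and 3.27 in PT (-1.60 ± 0.24, limma adjusted p = 0.0021), and Lyn differed by -1.54. The remaining ones were at Eml2, Tmem131l, Zfp811 and Anp32a, and at Arntl (a transcription factor of the circadian clock, -1.56), Susd1 (-1.52), Ceacam18 (-1.29), Foxn3 (-1.27), Igf2bp2 (-1.15) and Tm9sf4 (-0.93), these 6 chosen after their values were seen. Across the 15, MC minus MM ran from 1.60 to 4.42 and MP minus MM from 0.82 to 2.71, and CpG gave a higher mean than polyI:C at each.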

How the data were processed

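Per the submitters' processing notes, the authors used MACS3 3.0.0b1, Bowtie2 2.2.5, featureCounts, Picard and SAMtools 1.9, with the build mm10 (GRCm38). Settings, and how regions were merged, are not given in the sources used here. The deposited values are log2 CPM per region and library, computed by the authors before deposit. Every library's values (100%) return whole reads within 0.01 under a mean prior of 3 reads, with 0 reads at -0.70. The prior understates differences of regions with few reads.

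All 53796 regions were used, each 501 bases from start to end. Group means gave the members, which together with the gene lists and naming rules were chosen with earlier results of these data known. Each region went to the nearest protein-coding gene body within 50 kb (RefSeq, GRCm38.p6). Limma 3.58.1 in R 4.3.3 fitted 4 group means to the 8 CL, PL, CT and PT libraries, with a variance trend (4 residual and 20.86 prior degrees of freedom) and Benjamini-Hochberg adjustment over all 53796 p-values of each of 5 contrasts. The fit was tested on simulated data. Reads per library and the counting-noise check between replicates (chi-square over regions) used recovered reads. Values with ± in tests are standard errors.

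Named regions are the 12 with the highest smallest-of-4 difference, up to 3 per gene list, those of the 6 genes with the most members, the 4 largest called rises and falls per contrast without overlap between groups, 3 on each side of the threshold, 4 with the lowest and 4 with the highest double-stimulus mean over MM, and 4 with the highest MM level. Regions at promoter windows were also described. The NF-kB consensus was added after the first motif counts were seen. Replicate numbers were not shown to pair samples across groups, so no block was used. The alternatives were other thresholds, scalings, filters, variance models and samples in the fit, voom, a replicate block and each library left out.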

Additional observations from a re-analysis of the deposited data

Results flagged for a closer look

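The difference between CpG first and polyI:C first changed with the second stimulus in 15 of the 1552 regions, by the limma test of (CL minus PL) against (CT minus PT). The value was -2.60 at the Eml2 region (adjusted p = 0.000274), -1.88 at Tmem131l (adjusted p = 0.0465), -1.88 at Zfp811 (adjusted p = 0.000378) and -1.70 at Anp32a (adjusted p = 0.0373). It was -1.60 at Lpp, -1.56 at Arntl, -1.54 at Lyn, -1.52 at Susd1, -1.29 at Ceacam18, -1.27 at Foxn3, -1.15 at Igf2bp2 and -0.93 at Tm9sf4, and -1.40, -1.39 and -1.18 at the 3 Socs3 regions (adjusted p = 0.0021 to 0.0497 over these 11 regions). At Zfp811, which had 5.40 and 5.28 log2 CPM in CL, 5.24 and 4.92 in PL, 5.22 and 5.52 in CT and 3.23 and 3.22 in PT, the PT libraries lay apart from the other 3 groups, and the same held for Anp32a with 3.65 and 3.32 in CL, 3.14 and 3.46 in PL, 3.42 and 3.34 in CT and 1.39 and 1.60 in PT. Without at least 1 library, 13 of the 15 lost the call, with Eml2 and Zfp811 as the exceptions. The PT libraries, on which these values rest, differed more from each other than those of any other group. Fits without 1 PT library leave that group with 1 library and take its spread from the other groups. The part of the PT spread in these results was therefore not tested.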

How the results depend on the processing

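The number of regions depended on the rule and the scaling. It was 2588 at a threshold of 0.6, 936 at 1, 664 after quantile normalization, 708 when every library had to lie 0.8 over the higher MM library, 969 in the upper 75% by level and 1526 to 1916 when 1 library was left out, with 1569 after shifting libraries to one median. Of the 1552 regions, 1318 stayed in the set without MM replicate 1 and 1228 without MM replicate 2, so membership depended on single MM libraries. With a threshold of 1 for members and count, 926 (CL), 918 (PL), 896 (CT) and 865 (PT) of 936 were above MM. After quantile normalization the smallest of the 4 differences turned negative at Phf21a (-0.04), Art3 (-0.20) and Gda (-0.33).

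Tested counts moved as follows. In the upper 75% by level, CL against PL gave 83, CT against PT 372, CL against CT 11 and PL against PT 128. Without a variance trend, CL against CT gave 5, PL against PT 153 and the difference of differences 2, and with all 9 groups in the fit that last count was 32 (5 higher, 27 lower). The libraries that chose the regions enter the fit with all 9 groups, so its count is a description. Voom gave 79 for CL against CT. Leaving out 1 library gave 27 to 395 for CL against PL, 310 to 733 for CT against PT, 0 to 238 for CL against CT, 54 to 582 for PL against PT and 2 to 268 for the difference of differences, and a group left with 1 library is assumed to vary like the others. For CL against PL, leaving out either CL library moved the split to 8 higher and 21 lower, and for the difference of differences it was 88 and 180 without PT replicate 1 and 4 and 26 without PT replicate 2. The cause of these shifts was not tested.

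With the replicate block the counts were 153 (CL against PL), 559 (CT against PT), 28 (CL against CT), 198 (PL against PT) and 10 (difference of differences). Same-numbered libraries did not deviate together throughout (correlations -0.358 to 0.113), and with the CT and PT numbers crossed, chosen after seeing the data, CT against PT gave 642. Of 2279 values of the named tested regions under the alternatives, 1843 kept direction and side of the threshold, 436 lost the call and 0 changed direction. These regions had all passed the threshold in the main fit, and the alternatives used the same libraries. The absence of changes in direction therefore carries little weight. Regions with few reads in MM limit the precision of all differences from MM.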
